A study of Mus musculus with 16 samples.

Results

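Crabp1 and 8 further genes of the retinoic acid pathway (Crabp2, Rara, Rarb, Rarg, Rxra, Stra6, Dhrs3 and Cyp26b1) were followed through RNA-seq libraries of sparse Eed-/- and Eed+/+ cells of the mouse neocortex. The 9 genes were chosen by name and found by the gene identifiers of the count files, which hold 53379 genes in all. Crabp1 itself was selected on its reads in Eed-/- neurons, so its values in neurons are a description and carry no test. The libraries came from green cells sorted at postnatal day 4 from mice labeled CD1, whose background the study's methods give as mixed C57BL/6 and CD1. Each library came from 1 animal. Whether an astrocyte and a neuron library shared an animal could not be told from the paper. Mosaic analysis with double markers on chromosome 7 (MADM-7) labels single cells and ties their color to their genotype. Green cells of control-MADM animals were Eed+/+, and those of mosaic Eed-MADM animals were Eed-/- within mostly Eed+/- tissue. Eed encodes an essential part of the Polycomb complex PRC2, which places a repressive methyl mark on histone H3 at developmental genes. In every group recombination was driven by Emx1-Cre, which acts in the dorsal forebrain progenitors, and every green cell carried both of its chromosome 7 copies from the father. A lacZ transgene under the human GFAP promoter separated GFP+/lacZ+ cells, called astrocytes, from GFP+/lacZ- cells, called neurons. There were 5 libraries of Eed+/+ astrocytes, 5 of Eed-/- astrocytes, 2 of Eed+/+ neurons and 3 of Eed-/- neurons. The labels of the remaining library of 16 named both cell types, and it entered no comparison.

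Retinoic acid is made from vitamin A. Retinol enters cells, in some tissues through the receptor STRA6, is oxidized to retinaldehyde and then to retinoic acid, while DHRS3 returns retinaldehyde to retinol and CYP26 enzymes clear retinoic acid. In the cytoplasm retinoic acid is bound by CRABP1, which is linked to its breakdown, and by CRABP2, which hands it to nuclear receptors. Retinoic acid receptors (RARs) pair with retinoid X receptors (RXRs) on direct repeats of a short hexamer in target genes, of which Rarb is a classical example. In the developing forebrain the meninges are a known source of retinoic acid, and many Hox genes respond to it elsewhere along the body axis.

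Upstream sequences of 3 genes are printed because they show which of the pathway genes hold a receptor element next to their start. They were taken from RefSeq windows of build GRCm38.p6 that run from 250 bases before to 50 bases after a start, and only bases before the start are printed, 5′ to 3′ on the strand of the gene. In the Crabp1 sequence (chr9:54764498-54764747, plus strand) the capitals mark the GC box GGGCGG or its complement CCGCCC. In the Rarb (chr14:16575477-16575536, minus strand) and Cyp26a1 (chr19:37697748-37697807, plus strand) sequences they mark a DR5 element, a pair of receptor hexamers in the same orientation 5 bases apart.
Crabp1: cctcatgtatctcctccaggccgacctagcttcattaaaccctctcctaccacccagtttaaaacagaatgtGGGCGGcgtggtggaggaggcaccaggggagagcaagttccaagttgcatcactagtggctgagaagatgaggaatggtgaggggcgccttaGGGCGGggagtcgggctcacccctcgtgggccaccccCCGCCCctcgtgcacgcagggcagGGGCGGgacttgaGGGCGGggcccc
Rarb: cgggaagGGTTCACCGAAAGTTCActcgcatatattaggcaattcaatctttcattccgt
Cyp26a1: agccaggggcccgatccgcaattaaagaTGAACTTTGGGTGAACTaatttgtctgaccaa

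The receptor hexamer was searched on both strands as AGGTCA or AGTTCA or GGGTCA or GGTTCA, in pairs with spacers of 1, 2 or 5 bases (DR1, DR2 and DR5). A window was given for 8 of the 9 genes, all but Crabp2, and for 32 of 43 other retinoid genes. DR5 was found in 32 of 32851 windows (0.0974%), among them those of Rarb and Cyp26a1 and of no other gene of these lists with a window. The Rarb element begins 53 bases and ends 37 bases before the start. The Crabp1 window held no DR1, DR2, DR5 or AGGTCA letters. It held 5 GC boxes, all before the start, and 17 CpG pairs. GC boxes occurred in 35.7% of all windows, and the median window had 7 CpG pairs with an upper quartile of 20.0. A match of letters is a description, and its absence says only that these letters are not in this window.

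Depth differed widely between libraries. Counts summed over genes ranged from 211736 to 3178529, and 10 of the 15 labeled libraries had at least 1000000 uniquely aligned reads that made up at least 60% of reads. The 5 libraries outside these limits were Eed+/+ astrocytes 3, Eed-/- astrocytes 1, 3 and 4, and Eed+/+ neurons 2. Eed was read at 28.4 to 76.2 CPM in 4 Eed+/+ astrocyte libraries, 3.71 CPM in the remaining one, 64.9 and 81.2 CPM in Eed+/+ neurons, 16.4 to 37.97 CPM in Eed-/- neurons, and 0 to 17.3 CPM in Eed-/- astrocytes. These counts cover the whole gene and do not single out its deleted part. Astrocyte markers summed to 5679 to 8068 CPM in the neuron libraries, above their neuron markers (977 to 2107 CPM), so "neurons" is used here as the name of the lacZ- sort. Levels are reads per 1000000 gene reads after TMM scaling (CPM), and 3 reads, the limit set by a count of 0, correspond to 1.12 to 9.36 CPM.

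Crabp1 was read in all Eed-/- neuron libraries and was close to absent from Eed+/+ cells. The Eed-/- neuron libraries had 109, 219 and 190 reads, or 85.3, 112 and 120 CPM. Eed+/+ neurons had 2 reads (1.07 CPM) in replicate 1 and 0 in replicate 2. The groups did not overlap, and the lowest Eed-/- neuron library lay far above both Eed+/+ neuron libraries. These are the values on which the gene was chosen. Pooled over libraries the level was 108 CPM against 0.916 CPM, a ratio of 118 with an exact 95% counting interval of 32.4 to 973. Such intervals cover the counting error of the reads alone. They leave out the spread between libraries and the choice of the gene on these values, so the ratios are a description. Against Eed+/+ neuron replicate 1 alone, the library within the alignment limits, the ratio was 100.2 (27.6 to 829.8). Against replicate 2 alone, where 0 reads allow up to 9.36 CPM, the level was at least 11.5-fold higher. In the Eed-/- neuron libraries Crabp1 had more reads than 83.7% to 89.6% of the genes with any read. Marker sums of 3 of the 9 cell type lists also did not overlap between the neuron groups: neuron markers (1313 to 2107 CPM in Eed-/- against 977 and 1243 CPM), Cajal-Retzius markers (27.4 to 223.5 against 6.24 and 10.7 CPM) and microglia markers (10.7 to 100.1 against 0 and 9.66 CPM). With so few libraries, ranges of single genes were likewise apart between these groups for 23.3% of all genes tested. Within the neuron list Tubb3 was higher in Eed-/- neurons (738 to 1335 against 175 and 543 CPM), whereas Lrrn3 was lower (50.3 to 68.0 against 71.8 and 74.6 CPM) and Map2 overlapped (156 to 458 against 426 and 484 CPM). The part of these markers' cells in the Crabp1 level was not tested. In bulk libraries more cells with the transcript and more transcript per cell cannot be told apart.

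**Figure D1:**
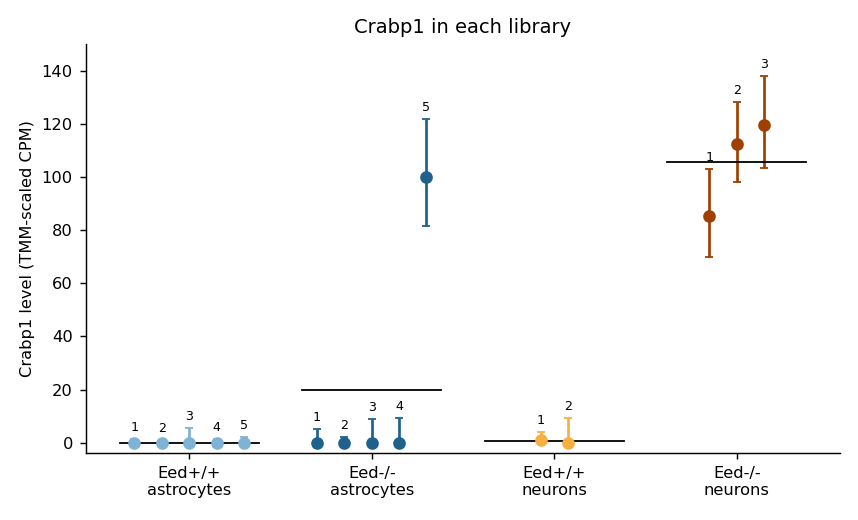
Crabp1 level in TMM-scaled CPM (vertical axis) in each library of the 4 groups; numbers are replicates, bars exact 95% counting intervals (up to 3 reads where the count was 0) and lines group means. The 3 Eed-/- neuron libraries and Eed-/- astrocytes 5 sit between 85.3 and 120 CPM, and the other 11 libraries at or below 1.07 CPM.

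In astrocytes Crabp1 was present in a single library. All 5 Eed+/+ astrocyte libraries had 0 reads, which allows up to 1.12 CPM in the deepest and 5.57 CPM in the shallowest of them. Eed-/- astrocytes 1, 2, 3 and 4 also had 0 reads, with limits of 5.08, 1.99, 8.86 and 9.27 CPM, while Eed-/- astrocytes 5 had 99 reads (100.1 CPM, counting interval 81.4 to 122). Its level lay inside the range of the Eed-/- neurons. The group means were 20.0 ± 44.8 CPM (SD, n = 5) and 0 CPM (n = 5), and the two-sided exact permutation test over libraries gave p = 1, the only value it can give when a single library of 10 has reads, so it bears on no difference. Without that library the Eed-/- mean was 0 as well. Within the alignment limits 2 Eed-/- astrocyte libraries remained, at 0 and 100.1 CPM. The library numbers of the series fall into 2 runs: all neuron libraries belong to the first, Eed-/- astrocytes 5 to the second, and the Eed-/- astrocyte libraries of the first run (1, 2 and 3) had no Crabp1 read.

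Neuron markers moved with Crabp1 among the Eed-/- libraries. In Eed-/- astrocytes 5, 11 of 12 neuron markers had reads and summed to 2181 CPM, against 3.38 to 457 CPM in the other Eed-/- astrocyte libraries and 1313 to 2107 CPM in Eed-/- neurons. Tubb3 stood at 1258 CPM and Map2 at 404 CPM there, and Slc17a7, which marks glutamatergic neurons, was at 0. Of the interneuron markers in that library, Gad2 was at 184 CPM and Dlx1 at 193 CPM, and Lhx6 and Sst were at 0. Among Eed+/+ libraries the same neuron markers reached 2666 CPM in astrocytes 3 and 1831 CPM in astrocytes 4, both without a Crabp1 read. Eed+/+ astrocytes 3 lay outside the alignment limits, and its count of 0 allows up to 5.57 CPM. The part of neuron content in the Crabp1 level of Eed-/- astrocytes 5 was not tested.

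**Figure D2:**
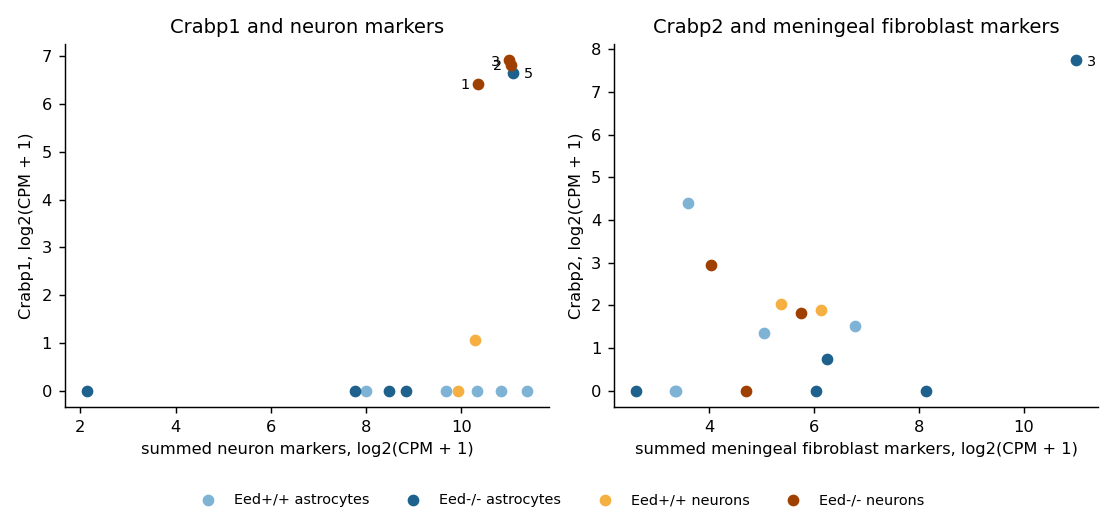
Left, Crabp1 against the summed level of 12 neuron markers, and right, Crabp2 against that of 7 meningeal fibroblast markers, each point 1 of 15 libraries and both axes on the log2(CPM + 1) scale; numbers name replicates above 50 CPM. Crabp1 is high in 4 Eed-/- libraries with neuron sums of 1313 CPM or more and at 0 in Eed+/+ astrocytes with similar sums, and Crabp2 is highest in Eed-/- astrocytes 3, where the meningeal sum is 2043 CPM.

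Crabp2, the other cellular binding protein of the family, did not follow Crabp1. It had 0, 13 and 4 reads in Eed-/- neurons (0, 6.67 and 2.52 CPM) and 5 and 1 reads in Eed+/+ neurons (2.68 and 3.12 CPM), so the neuron groups overlapped. Eed+/+ astrocytes had 1.57, 1.87, 0, 0 and 20.1 CPM in replicates 1 to 5. Eed-/- astrocytes were at 0, 0.665, 213, 0 and 0 CPM, and the level of the group rested on replicate 3 (72 reads). In Eed-/- astrocytes 5, where Crabp1 was at 100.1 CPM, Crabp2 had 0 reads. It did not pass the filter on low counts in either genotype comparison.

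Eed-/- astrocytes 3 was also the library with the highest values of several other genes of the pathway. It held Rarg at 148 CPM, Dhrs3 at 177 CPM and Cyp26b1 at 26.6 CPM, and, outside the 9 genes, the retinol carrier Rbp4 reached 484 CPM there. All 7 meningeal fibroblast markers had reads and summed to 2043 CPM, with Dcn at 1420 CPM and Col1a1 at 360 CPM, whereas the sums were 5.08 to 281 CPM in the other Eed-/- astrocytes, 9.22 to 109 CPM in Eed+/+ astrocytes and 15.4 to 68.7 CPM in neurons. No meningeal marker was at 0 in that library, though Foxc1, Lum and Slc6a13 had 1 read each. Microglia markers summed to 1945 CPM there (5 of 6 with reads), against 6310 CPM in Eed-/- astrocytes 1, 0 CPM in Eed-/- astrocytes 2, 4 and 5, and at most 282 CPM in the other groups. Of 9 interneuron markers 4 had reads there, summing to 880 CPM, of which Npy gave 608 CPM, and Dlx2, Dlx5, Lhx6, Slc32a1 and Sst were at 0. In the other Eed-/- astrocyte libraries Npy was at 208 CPM in replicate 2, 47.5 CPM in replicate 5 and 0 in replicates 1 and 4, against 56.7 to 79.0 CPM in Eed-/- neurons and 0 to 4.19 CPM in Eed+/+ libraries. Eed-/- astrocytes 3 is a shallow library (403472 gene counts) outside the alignment limits, and the part of other cells in these levels was not tested.

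The retinoic acid receptors showed no change with genotype that passed the test. Rara was read in both Eed+/+ neuron libraries (23.6 and 43.7 CPM) and all Eed-/- neuron libraries (28.9, 14.9 and 20.1 CPM), with overlapping ranges. Its fitted log2 fold change was -0.76 ± 0.79 (SE; adjusted p = 0.786, edgeR). In Eed+/+ astrocytes Rara was at 41.9, 28.4, 0, 16.6 and 20.1 CPM, and in Eed-/- astrocytes at 0, 63.8, 0, 0 and 14.2 CPM. The 4 zeros of Rara lay in libraries outside the alignment limits, and the fitted difference in astrocytes was -0.39 ± 1.57 (SE; adjusted p = 0.9999, edgeR). It was -2.31 without Eed-/- astrocytes 2 and -0.0113 without Eed+/+ astrocytes 1, the extremes over left-out libraries.

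Rarg levels overlapped as well. Eed+/+ neurons had 11.8 and 6.24 CPM and Eed-/- neurons 14.1, 1.54 and 7.55 CPM, a log2 fold change of -0.43 ± 1.08 (SE; adjusted p = 0.898, edgeR). Eed+/+ astrocytes had 10.5, 35.8, 0, 24.9 and 2.08 CPM and Eed-/- astrocytes 0, 48.5, 148, 0 and 0 CPM. The astrocyte difference of 1.51 ± 1.61 (SE; adjusted p = 0.9999, edgeR) rested on Eed-/- astrocytes 3, without which it was -0.21 (adjusted p = 1).

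Rarb, the receptor whose start carries the DR5 element printed above, was at or near 0 throughout. It had 3, 4 and 0 reads in Eed-/- neurons (2.35, 2.05 and 0 CPM), 0 in both Eed+/+ neuron libraries and 0 in all Eed+/+ astrocytes. The highest value was 10 reads (10.1 CPM) in Eed-/- astrocytes 5, and the other 4 Eed-/- astrocyte libraries had 0. Every library with a Rarb read was therefore Eed-/- and also held Crabp1, and Eed-/- neurons 3, with 190 Crabp1 reads, had no Rarb read. With so few reads Rarb passed the filter on low counts in none of the comparisons. Rarb shares exonic bases with Top2b and an antisense transcript on the opposite strand, and reads there were set aside by the unstranded counting.

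Rxra, the partner of the receptors, was read in 4 of 5 neuron libraries and 3 of 10 astrocyte libraries. Eed-/- neurons had 9.39, 9.75 and 16.4 CPM, and Eed+/+ neurons 18.2 and 0 CPM, with a log2 fold change of 0.06 ± 1.06 (SE; adjusted p = 0.988, edgeR). Among astrocytes it was at 12.4 CPM in Eed+/+ replicate 4, at 2.95 and 2.02 CPM in Eed-/- replicates 3 and 5, and at 0 in the other 7. The sign of the genotype difference in neurons turned when Eed+/+ neurons 2, with its 0 among 343640 gene counts, was left out (-0.65, adjusted p = 1).

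**Figure D3:**
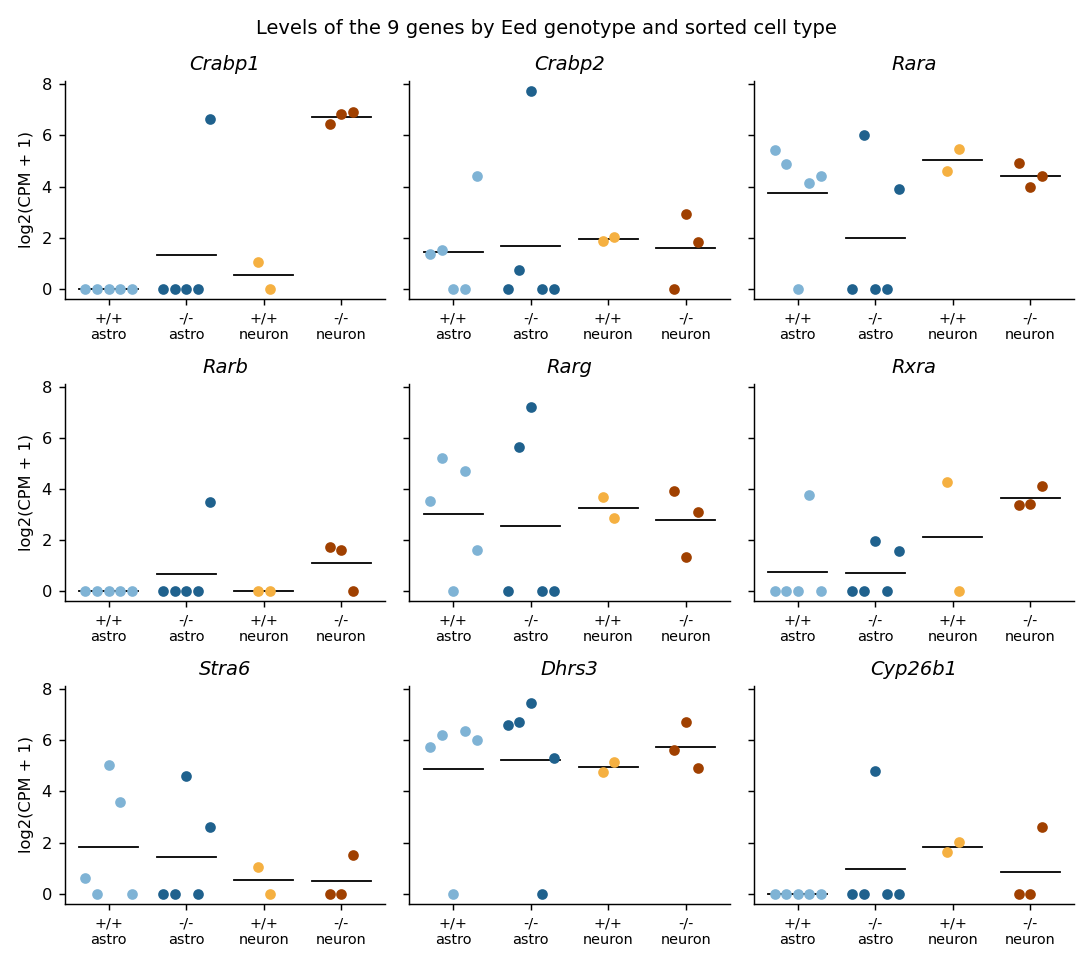
Level of each of the 9 genes as log2(CPM + 1) (vertical axis) by genotype and sort, 1 point per library, lines at the group means. Crabp1 separates Eed-/- neurons from Eed+/+ neurons, and the other 8 genes overlap between genotypes in both sorts.

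Enzymes and the uptake receptor differed less than their spread between libraries. Dhrs3 was the most regularly read of the 9 genes, at 26.3 and 34.3 CPM in Eed+/+ neurons and 47.7, 105 and 29.0 CPM in Eed-/- neurons, a log2 fold change of 0.92 ± 0.80 (SE; adjusted p = 0.772, edgeR) that was 0.21 without Eed-/- neurons 2. In Eed+/+ astrocytes it stood at 52.4, 72.4, 0, 82.1 and 64.4 CPM, and in Eed-/- astrocytes at 96.5, 105, 177, 0 and 38.4 CPM, a difference of 0.72 ± 1.44 (SE; adjusted p = 0.9999, edgeR) that was 0.20 without Eed-/- astrocytes 3. The 2 zeros were libraries outside the alignment limits.

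Stra6, the retinol uptake receptor, was sparse. It had 2 and 0 reads in Eed+/+ neurons and 0, 0 and 3 in Eed-/- neurons. Eed+/+ astrocytes were at 0.524, 0, 31.6, 11.1 and 0 CPM and Eed-/- astrocytes at 0, 0, 23.6, 0 and 5.06 CPM. Both groups of astrocytes thus held libraries with and without the transcript. Cyp26b1, which clears retinoic acid, had 4 and 1 reads in Eed+/+ neurons and 0, 0 and 8 in Eed-/- neurons. In astrocytes it was read in Eed-/- replicate 3 alone (9 reads).

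In the genotype comparisons edgeR called none of the members that passed the filter, and DESeq2 called Crabp1 in neurons, the contrast on which it was selected. Of 8956 genes tested in astrocytes edgeR called 0 at an adjusted p of 0.05 (0%), with 108 at an unadjusted p under 0.05, and DESeq2 called 1. The genes tested there included Rara, Rarg and Dhrs3. In neurons edgeR called 0 of 11862 (0%), with 862 at an unadjusted p under 0.05, and DESeq2 called 27. There the other 8 genes were represented by Rara, Rarg, Rxra and Dhrs3, none of which edgeR called. DESeq2 called neither Rara nor Dhrs3 and gave no adjusted p for Rarg and Rxra. Over all genes tested, the median fitted difference (log2) was -0.54 in astrocytes and 0.15 in neurons. Relative to these, Rara, Rarg and Dhrs3 stood at 0.14, 2.05 and 1.25 in astrocytes, and Rara, Rarg, Rxra and Dhrs3 at -0.90, -0.58, -0.09 and 0.78 in neurons, with none past the test. Ranges of CPM did not overlap between genotypes for 1.73% of the genes tested in astrocytes, none of them a gene of the 9, and for 23.3% in neurons, of the 9 Crabp1 only, for which that contrast was the ground of selection.

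Between the sorts, Crabp2, Rara, Rarg, Rxra, Stra6 and Dhrs3 passed the filter and none was called, against 2 of 13367 genes (0.015%). Rarb and Cyp26b1 were not tested, and Crabp1 is left aside, since its difference draws on the neuron libraries by which it was chosen. The fitted log2 differences of astrocytes over neurons were 3.16 ± 1.66 for Stra6 (SE; adjusted p = 0.927), 2.22 ± 1.48 for Crabp2 (adjusted p = 0.9999) and -2.69 ± 1.32 for Rxra (adjusted p = 0.862) by edgeR. Those of Rara, Rarg and Dhrs3 were -0.52, 1.503 and 0.65 (adjusted p = 0.9999 for each). The Stra6 difference ranged from 2.21 without Eed-/- astrocytes 3 to 4.67 without Eed+/+ neurons 1 and was 1.59 within the alignment limits. The Crabp2 difference turned to -1.28 (adjusted p = 0.9999) without Eed-/- astrocytes 3. That of Rxra turned to 0.61 without Eed+/+ neurons 1. The interaction of genotype with cell type called 7 of 13367 genes (0.0524%), and none of these 6 members.

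**Figure D4:**
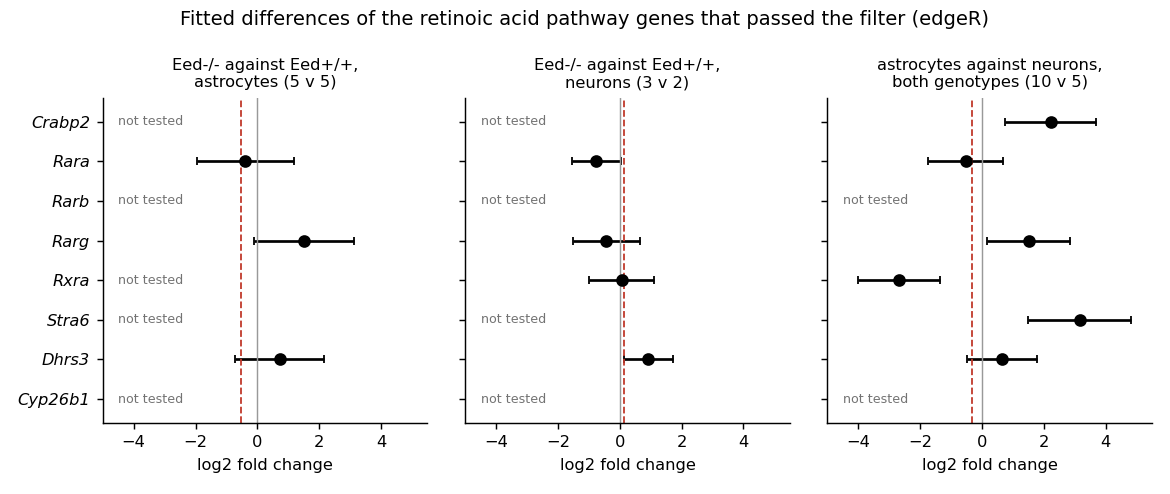
Fitted log2 fold change (horizontal axis, points with SE bars, edgeR) in the genotype comparison of astrocytes (3 genes with a value), that of neurons (4) and astrocytes against neurons (6), Crabp1 left out and genes under the filter marked as not tested; dashed lines are medians over all genes tested. No point passed an adjusted p of 0.05.

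Compared per kilobase of exon, the order of the 9 genes changed with the group. In Eed-/- neurons Crabp1 had the highest level per length, at 132 ± 22.6 CPM per kb (SD, n = 3), ahead of Dhrs3 (20.7 ± 13.6) and Rara (4.88 ± 1.63). Crabp2, Rxra and Rarg followed at 2.32, 2.17 and 1.81 CPM per kb and did not differ beyond their spread, and Cyp26b1, Rarb and Stra6 were at or below 0.314. In Eed+/+ neurons Dhrs3 (10.4 ± 1.94 CPM per kb, n = 2) and Rara (7.71 ± 3.25) led, with ranges of spread that overlapped, and Crabp1 stood at 0.669. Dhrs3 also led in Eed+/+ astrocytes (18.5 ± 11.01 CPM per kb, n = 5), followed by Rara (4.90 ± 3.53). In Eed-/- astrocytes the highest means, of Crabp2 (32.3 ± 71.8), Dhrs3 (28.5 ± 23.2) and Crabp1 (25.0 ± 55.8), did not differ beyond their spread, and those of Crabp2 and Crabp1 came almost wholly from replicate 3 and from replicate 5.

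The number of the 9 genes with reads varied between libraries, and not only with the number of genes detected. Eed-/- astrocytes 4 and 1, with 2959 and 4462 genes detected, had reads for 0 and 1 of them. Eed+/+ neurons 1 and Eed-/- neurons 3, with 17347 and 18064 genes detected, each had reads for 8. Eed-/- astrocytes 3 had reads for 6 with 7321 genes detected, whereas Eed+/+ astrocytes 1, 2 and 4 had reads for 5, 4 and 5 with 15156 to 17586. Zeros in the shallow libraries limit a level rather than show absence.

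The genes whose levels ran most closely with Crabp1 over the 15 libraries were Rasd2, Hoxc10, Hoxb13, Gata6 and En1, ranked by Pearson's r of log2(CPM + 1) among 13367 genes. The values of r were 0.991, 0.989, 0.986, 0.983 and 0.977. They are a description, since the libraries share their depth and most of them are at 0 for all of these genes. Hoxc10, Hoxb13 and Gata6, transcription factors of other body regions or germ layers, had no read in any Eed+/+ library, and En1, a midbrain and hindbrain factor, had 1. Hoxb13 was at 54.0, 68.8 and 27.7 CPM in Eed-/- neurons and 24.3 CPM in Eed-/- astrocytes 5. En1 was at 20.3, 19.0 and 20.8 CPM in Eed-/- neurons and 7.08 CPM in Eed-/- astrocytes 5. No read of Hoxc10, Hoxb13, Gata6, En1 or Rasd2 was present in Eed-/- astrocytes 1 to 4, a split that the choice by correlation over these same libraries favors.

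**Figure D5:**
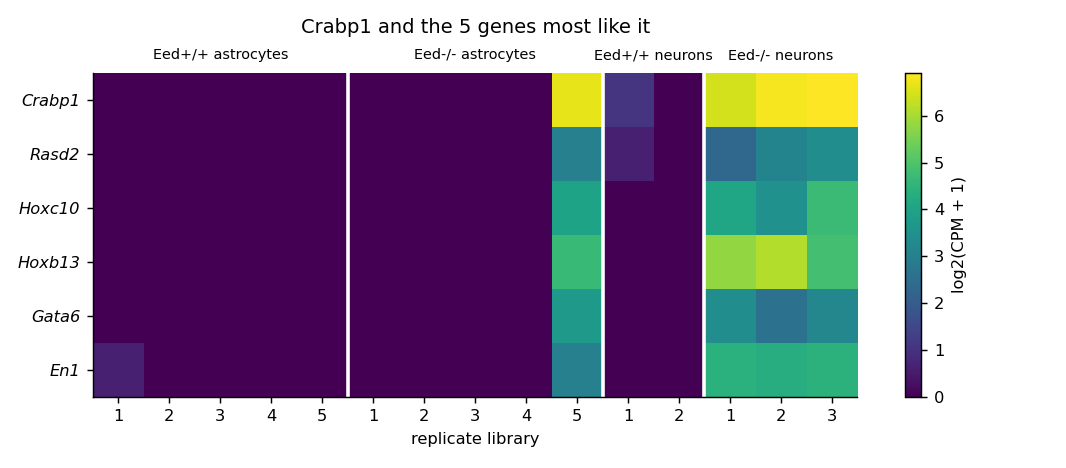
Level as log2(CPM + 1) (color) of Crabp1 and the 5 genes most like it (rows) in each of 15 libraries (columns, replicate numbers within groups). All 6 rows are bright in the 3 Eed-/- neuron libraries and Eed-/- astrocytes 5 and at or near 0 elsewhere.

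Of 43 other retinoid genes (uptake and storage, synthesis, degradation, carriers, receptors with their coregulators, and known targets), 17 were tested for genotype in astrocytes and 21 in neurons, and 0 were called in either. Their median log2 fold change was -0.94 in astrocytes and 0.11 in neurons, and 4 of 17 and 11 of 21 were positive. Fabp5, a fatty acid binding protein that also carries retinoic acid, was at 275 ± 142 CPM in Eed-/- neurons (SD, n = 3) and 138 ± 138 CPM in Eed+/+ neurons (n = 2). Adh5, an alcohol dehydrogenase, was at 294 ± 112 and 101 ± 130 CPM. Rdh11 and Rdh14, retinol dehydrogenases, had log2 fold changes in neurons of 0.57 ± 0.71 and 1.72 ± 0.88 (SE; adjusted p = 0.809 and 0.705, edgeR). The corepressor Ncor1 had a value of -0.61 ± 0.63 (adjusted p = 0.786), and the coactivator Ncoa2 of -2.51 ± 0.82 (adjusted p = 0.644). The homeobox target Meis2 was at 364 ± 143 CPM in Eed-/- and 610 ± 183 CPM in Eed+/+ neurons (adjusted p = 0.763, edgeR). Rxrb and Rxrg, the further RXR genes, had log2 fold changes of 0.90 ± 0.96 and 0.89 ± 0.95 in neurons (adjusted p = 0.787 for both, edgeR). Ranges of CPM in neurons did not overlap for 7 of the 21 tested (33.3%, beside 23.3% of all genes tested). Among them Rbp4, Rdh13, Rdh14 and Rxrb were higher in Eed-/- neurons, Rdh14 for example at 18.3 to 53.2 CPM against 6.24 and 14.0 CPM, and Rdh5 and Ncoa2 were lower, Ncoa2 at 9.75 to 44.7 CPM against 55.3 and 199.8 CPM. Rxra (r = 0.61) and Rdh10 (r = 0.53) had the highest correlations with Crabp1 of the other pathway genes over the 15 libraries, far below the 5 genes named above, and these too are a description.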

How the data were processed

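Green MADM-labeled cells of the neocortex at postnatal day 4 were sorted and sequenced as 16 Smart-seq2 libraries. The authors aligned reads with STAR to mm10 (GRCm38) and deposited raw counts of reads per gene for each library, not normalized and not pooled. Their annotation release is not stated in the sources read here. First-strand reads made up 45.2% to 52.7% of stranded reads, so the unstranded column (column 2) was used, and the 4 opening lines, which name no gene, were left out of every total. Symbols and positions came from GENCODE mouse release M21 (53274 identifiers matched, 105 did not).

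Counts were tested with the quasi-likelihood test of edgeR 4.0.16 (R 4.3.3; TMM, filterByExpr, robust dispersions). Tests were two-sided, and p-values were adjusted by Benjamini-Hochberg across the genes tested. Genotype was compared within each sort, and the sorts and the interaction were fitted over 15 libraries. Crabp1 in astrocytes was compared by a two-sided exact permutation test of mean CPM. Alternatives were RLE scaling, no filter or a mean count above 10, DESeq2 1.42.0, limma 3.58.1 (voom with quality weights), 1 fit over 15 libraries, the run of library numbers, a replicate block, the libraries within the alignment limits, and each library left out. The tests were tried on simulated data.

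The members and gene lists were chosen with earlier results of these data known. Named were the 9 members, other retinoid genes of the 43 that were called or reached a mean of 20 CPM in a group, and the 5 genes most like Crabp1. Cyp26a1 was named for its DR5 element after the windows were searched. Floors (3 counts) and 95% intervals (exact Poisson, or exact binomial for ratios) cover counting error only, since reads without molecular identifiers are not independent molecules. Which libraries the study set aside could not be learned from the sources, so all 15 were kept. Results for some retinoid genes are not reported here.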

Additional observations from a re-analysis of the deposited data

Results flagged for a closer look

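Of 15 sets of 5 astrocyte libraries in which a gene of the 9 had reads, 8 held a library whose distance to its nearest neighbor exceeded 0.71 of the whole range (Dixon's test at 95%), where chance flags about 1 in 20. Among Eed-/- astrocytes, replicate 5 stood apart for Crabp1 (100.1 CPM, all others at 0) and Rarb (10.1 CPM, all others at 0). Replicate 3 of that group stood apart for Crabp2 (212.5 CPM, next 0.665), Stra6 (23.6 CPM, next 5.06) and Cyp26b1 (26.6 CPM, all others at 0). Replicate 2 stood apart for Rara (63.8 CPM, next 14.2). Among Eed+/+ astrocytes, replicate 5 stood apart for Crabp2 (20.1 CPM, next 1.87) and replicate 4 for Rxra (12.4 CPM, all others at 0). In groups with many zeros a single library with reads is enough for a flag.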

How the results depend on the processing

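There were 2 Eed+/+ neuron libraries, of which replicate 2 had 343640 gene counts, and 4 astrocyte libraries had 211736 to 477760. Of the 9 genes, 3 passed the filter for genotype in astrocytes and 5 in neurons. The number of members called, among those above the filter, stayed at 0 for the cell type and interaction comparisons under every alternative. In astrocytes it became 1 (Crabp1) in 1 fit over 15 libraries, where Crabp1 passed the filter only with the neuron libraries in the fit and had reads in 1 astrocyte library, Eed-/- 5. In neurons it became 1, in each case Crabp1, which was selected on that contrast, with no filter on low counts (1), with DESeq2 (1) and within the alignment limits (1, the same fit as without Eed+/+ neurons 2, with a single control assumed to vary like the Eed-/- libraries), and ranged from 0 to 1 when single libraries were left out, being 1 without Eed+/+ neurons 1, Eed+/+ neurons 2 or Eed-/- neurons 1. The Crabp1 mean difference in astrocytes ranged from 0 to 25.0 CPM over left-out libraries and was 0 without Eed-/- astrocytes 5. Genes called overall ranged from 0 to 46 in astrocytes (46 in 1 fit over 15 libraries, 24 with a mean count above 10), 0 to 2601 in neurons (127 with no filter, 27 with DESeq2), 0 to 5 between the sorts and 0 to 21 for the interaction (21 with RLE scaling, 7 as reported). The 2601 arose without Eed+/+ neurons 1, where the shallow replicate 2 was the only control and was assumed to vary like the other group, and 5 other retinoid genes (Dhrs4, Adh5, Fabp5, Rxrb and Ncoa2) were among them.

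Signs turned for fitted log2 fold changes that did not pass the test in any setting. In astrocytes Rarg became -1.38 with limma-voom, -0.98 with the run of library numbers and -0.21 without Eed-/- astrocytes 3 (-0.21 to 1.80 over the 7 left-out libraries that kept Rarg above the filter, not reached without Eed+/+ astrocytes 2 or 4 or Eed-/- astrocytes 2), Rara became 0.56 within the limits, and Dhrs3 -0.0606 with the run. In neurons Rxra became -0.19 with limma-voom, -0.65 within the limits or without Eed+/+ neurons 2, and -0.27 without Eed-/- neurons 3 (-0.65 to 6.92 over left-out libraries), and Rarg became 0.12 without Eed+/+ neurons 1 and 0.07 without Eed-/- neurons 2 (-1.15 to 0.12). Between the sorts Crabp2 became -0.33 with limma-voom, -0.93 within the limits and -1.28 without Eed-/- astrocytes 3 (-1.28 to 2.83), Rara became 0.50 within the limits and 0.0454 with the run, and Rxra 0.61 without Eed+/+ neurons 1 (-5.05 to 0.61). The cause was not tested. With the replicate block, 0 of the 9 genes were called in each comparison and Rarg in astrocytes became -2.01, Rara in astrocytes -2.25 (adjusted p = 0.904 for both) and Stra6 between the sorts 0.983. Deviations from group means of samples with the same number had correlations of -0.25 to 0.16. With so few libraries per group these cannot decide whether the numbers pair the libraries.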

Other observations

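The library whose labels name both cell types had 221456 gene counts, 2397 genes detected and 17.8% of reads uniquely aligned. Its reads of the members are not reported here, and 3 reads would be 13.6 CPM on plain totals.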
